A study of Mus musculus with 10 samples.

Results

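The 7 genes here mark the formative and primed epiblast were followed through single-cell RNA-seq of mouse primordial germ cell-like cell (PGCLC) differentiation: Fgf5, Otx2, Pou3f1, Foxd3, Zic2, Zic5 and Sox3. They were chosen by name, with earlier results of these data known. All 7 were found among the 27998 genes of the E14Tg2a table, by Ensembl identifiers matched to symbols. They were found again by symbol among the 32285 genes of the R1 table. The study asked how embryonic stem cells (ESC) gain and lose the ability to form PGCLC. The 8 E14Tg2a libraries came from wild type E14Tg2a cells: ESC kept in medium with MEK and GSK3β inhibitors plus LIF (2i ESC), ESC kept in serum and LIF (S+L ESC), epiblast-like cells after 1, 2 and 3 days of Activin A and bFGF (d1, d2 and d3 EpiLC), epiblast stem cells passaged in the same 2 factors for at least 8 days (EpiSC), and embryoid bodies after 2 and 4 days (d2 and d4 EB). The EB were made from d2 EpiLC and grown with BMP4, SCF, LIF and EGF. Barcode endings and a list of PGCLC barcodes from the supplement of the paper assign cells to stages, and the list holds 91 cells of d2 EB and 44 cells of d4 EB. The remaining 446 and 324 cells are called other d2 EB and other d4 EB cells here. A further pair of d4 EB libraries came from the R1 ESC line, wild type (R1 WT) and Mll3/4 dCD, whose MLL3 and MLL4 histone methyltransferases carry substitutions that remove their catalytic activity. Those substitutions leave the transcripts in place, so counts of the 2 genes do not check the genotype. Every condition was 1 library, so no difference between conditions has a replicate check, and the genotype and the library of the R1 pair cannot be told apart.

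The epiblast leaves the naive state around implantation, passes through a formative state that can respond to germ cell inducing signals, and enters a primed state that precedes gastrulation. EpiLC are the cultured counterpart of the formative epiblast and EpiSC of the primed one. Fgf5 encodes a secreted fibroblast growth factor and is the classical marker of the postimplantation epiblast. Otx2 (homeodomain), Pou3f1 (POU domain, also called Oct6), Foxd3 (forkhead), Zic2 and Zic5 (zinc fingers) and Sox3 (a SoxB1 factor) encode transcription factors, and Otx2 is known to restrain entry into the germline.

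On GRCm38, Fgf5 (ENSMUSG00000029337) lies on chromosome 5 from 98254184 to 98277030 on the plus strand. Otx2 (ENSMUSG00000021848) lies on chromosome 14 from 48657677 to 48673819 on the minus strand, and its 11 annotated transcripts hold 2 to 6 exons. Pou3f1 (ENSMUSG00000090125, chromosome 4, 124656807 to 124660655) and Foxd3 (ENSMUSG00000067261, chromosome 4, 99656299 to 99658622) are single-exon genes on the plus strand. Zic5 (ENSMUSG00000041703, chromosome 14, 122456795 to 122465677, minus strand) and Zic2 (ENSMUSG00000061524, chromosome 14, 122475435 to 122479852, plus strand) are divergent neighbors with 9757 bases between them. Sox3 (ENSMUSG00000045179) is a single-exon gene on the minus strand of chromosome X from 60891366 to 60893430.

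RefSeq promoter windows of GRCm38.p6, from 250 bases before to 50 after a start, matched 4 of the 7 genes, and those shown belong to genes that were higher in d1 EpiLC than in 2i ESC. Capitals mark matches on either strand to 4 searched motifs: the OTX core TAATCC, the octamer ATTTGCAT, the GC box GGGCGG and the TATA box TATAAA, which do not overlap one another here. The windows are given 5′ to 3′ along the gene.
Fgf5, chr5:98253934-98254233, plus strand: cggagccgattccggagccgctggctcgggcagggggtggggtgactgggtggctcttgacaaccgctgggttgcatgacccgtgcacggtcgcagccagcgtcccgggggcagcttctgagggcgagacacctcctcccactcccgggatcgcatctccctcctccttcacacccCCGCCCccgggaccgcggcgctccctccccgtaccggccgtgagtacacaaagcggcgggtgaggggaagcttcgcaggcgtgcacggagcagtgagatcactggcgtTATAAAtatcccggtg
Foxd3, chr4:99656049-99656348, plus strand: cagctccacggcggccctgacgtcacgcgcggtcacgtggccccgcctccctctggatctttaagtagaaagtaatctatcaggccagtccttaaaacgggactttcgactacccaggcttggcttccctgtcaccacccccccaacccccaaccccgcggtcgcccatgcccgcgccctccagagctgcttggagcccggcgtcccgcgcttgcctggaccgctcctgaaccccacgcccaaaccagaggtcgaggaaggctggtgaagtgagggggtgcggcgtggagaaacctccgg
Otx2, the upstream-most of its 4 windows, chr14:48667595-48667894, minus strand: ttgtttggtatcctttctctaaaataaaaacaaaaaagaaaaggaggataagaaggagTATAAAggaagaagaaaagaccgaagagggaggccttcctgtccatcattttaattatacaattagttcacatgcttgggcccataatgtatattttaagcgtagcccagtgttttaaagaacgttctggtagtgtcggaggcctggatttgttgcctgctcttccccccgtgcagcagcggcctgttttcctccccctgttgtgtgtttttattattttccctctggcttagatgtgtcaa
Zic5, chr14:122465609-122465908, minus strand: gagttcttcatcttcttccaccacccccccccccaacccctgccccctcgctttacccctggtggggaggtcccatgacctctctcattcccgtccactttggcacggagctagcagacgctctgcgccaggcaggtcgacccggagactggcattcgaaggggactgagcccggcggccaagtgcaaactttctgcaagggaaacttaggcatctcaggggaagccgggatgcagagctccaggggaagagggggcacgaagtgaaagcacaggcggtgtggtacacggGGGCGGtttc
The Fgf5 window held a GC box on the opposite strand 74 bases before the start and TATAAA 34 bases after it. The Zic5 window held a GC box 40 bases after the start, the Otx2 window shown held TATAAA 192 bases before its start, and the Foxd3 window held none of the 4. Another Otx2 window, at chr14:48665060-48665359, held the OTX core on the opposite strand 211 bases before the start. Among all 32851 windows, 7.06% held the OTX core, 1.74% the octamer, 35.7% a GC box and 13.6% TATAAA. GC content was 68.3% for Fgf5, 65.7% for Foxd3, 62.7% for Zic5 and 41.7% for the Otx2 window shown, beside a median of 52.7% over all windows.

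Levels below are in CPM: the unique molecular identifiers (UMIs) that a group of cells had for a gene, divided by all UMIs of the group and scaled to a total of 1000000. Brackets hold exact 95% Poisson intervals for levels and exact conditional intervals for ratios, and all intervals and detection limits cover counting error only. A gene was called higher or lower when the ratio of its CPM was at least 2-fold with at least 10 UMIs over both groups. A gene can meet that minimum through 1 group alone, so counts of genes called are not independent of it. The UMIs tag 3′ ends, so levels are compared between groups of 1 gene and not between genes. Libraries held 227 to 1699 cells and 8757170 to 22887974 UMIs, with a median of 21658 to 36750 UMIs per cell in the E14Tg2a libraries (v2 chemistry) and of 11751 to 13188 in the R1 libraries (v3 chemistry). A summed 12-gene naive list (such as Klf4, Esrrb and Tfcp2l1) gave 2047 CPM in 2i ESC, 490 in d1, 107 in d2 and 135 in d3 EpiLC and 84.0 in EpiSC, and a 13-gene primed and streak list (such as T, Eomes and Foxa2) gave 857 CPM in EpiSC beside 312 in d3 EpiLC.

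Fgf5 was nearly silent in both ESC media and was highest in EpiSC. It had 2 UMIs in 2i ESC (0.228 CPM) and none in S+L ESC. It reached 46.3 CPM [42.3, 50.5] after 1 day, 72.6 [67.7, 77.8] after 2 days and 96.1 [91.1, 101] after 3 days as EpiLC, and 147 [140, 154] in EpiSC. Each of these 4 steps was larger than counting error. In EB the gene was again near 0: 2 UMIs in d2 PGCLC (0.682 CPM), none in other d2 EB cells, 1 UMI in d4 PGCLC (0.948 CPM) and 1 in other d4 EB cells (0.117 CPM). None of the 446 other d2 EB cells had a UMI, which allows a share of cells with a UMI of up to 0.673% and sets no limit on cells that express the gene at a lower level. By contrast 63.6% of d1, 84.1% of d2 and 83.5% of d3 EpiLC and 79.9% of EpiSC had one. After thinning every E14Tg2a cell to 15374 UMIs these shares were 43.4%, 62.2%, 68.1% and 69.0%.

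Otx2 was present in 2i ESC and peaked in EpiLC. Its level was 17.6 CPM [14.9, 20.6] in 2i ESC, 121 [114, 127] in d1, 87.2 [81.8, 92.9] in d2 and 135 [129, 142] in d3 EpiLC, then 65.0 [60.6, 69.5] in EpiSC. The EpiSC level was thus below that of each EpiLC library. S+L ESC had 12.1 CPM [10.0, 14.4], d2 PGCLC 8.18 [5.24, 12.2] and d4 PGCLC 11.4 [5.88, 19.9], and neighbors among these 3 groups were not separated beyond counting error. Other d2 EB cells had 1 UMI (0.0854 CPM) and other d4 EB cells 4 UMIs (0.468 CPM), a pair that did not differ beyond counting error either. At least 1 UMI was found in 41.0% of 2i ESC, 93.2%, 88.9% and 92.5% of d1, d2 and d3 EpiLC, and 42.9% of EpiSC. In thinned cells these shares were 21.5%, 79.0%, 69.6%, 81.5% and 34.6%.

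Pou3f1 was highest at the first EpiLC time point. It had 9 UMIs in 2i ESC (1.03 CPM), 302 CPM [292, 312] in d1, 257 [247, 266] in d2 and 136 [130, 143] in d3 EpiLC, and 144 [137, 150] in EpiSC. The d3 EpiLC and EpiSC levels were not separated by counting error. Lower levels were seen in S+L ESC at 5.34 CPM [4.02, 6.97], d2 PGCLC at 3.41 [1.63, 6.27], other d2 EB cells at 5.72 [4.43, 7.26], d4 PGCLC at 0.948 (1 UMI) and other d4 EB cells at 1.52 [0.810, 2.60]. In thinned cells Pou3f1 was detected in 91.0% of d1 EpiLC (91.8% unthinned), 93.6% of d2 EpiLC, 74.8% of d3 EpiLC and 68.4% of EpiSC.

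Foxd3, a forkhead factor needed to maintain the epiblast, peaked in d1 EpiLC and was no higher in EpiSC than in ESC. Its level was 11 CPM [8.88, 13.4] in 2i ESC, 43.4 [39.6, 47.4] in d1, 25.2 [22.3, 28.3] in d2 and 21.9 [19.5, 24.5] in d3 EpiLC, and 11.4 [9.66, 13.5] in EpiSC. S+L ESC had 11.1 CPM [9.13, 13.3]. Levels in d2 PGCLC were 2.73 CPM [1.18, 5.37] and in d4 PGCLC 5.69 [2.09, 12.4], while other d2 EB cells had no UMI and other d4 EB cells 1 UMI (0.117 CPM).

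The neighbors Zic2 and Zic5 were both higher in EpiLC and EpiSC than in ESC, but their order among these differed. Zic2 was highest in EpiSC, not separated from d2 EpiLC by counting error, and Zic5 was highest in d3 EpiLC. Zic2 had 6.85 CPM [5.23, 8.82] in 2i ESC, 15.5 [13.3, 18.1] in d1, 23.6 [20.8, 26.6] in d2 and 20.1 [17.8, 22.6] in d3 EpiLC, 25.9 [23.1, 28.8] in EpiSC and 4.95 [3.67, 6.52] in S+L ESC. Zic5 had 15.6 CPM [13.1, 18.5] in 2i ESC, 47.3 [43.3, 51.5] in d1, 59.5 [55.1, 64.2] in d2 and 70.1 [65.8, 74.6] in d3 EpiLC, 53.1 [49.1, 57.2] in EpiSC and 17.4 [14.9, 20.2] in S+L ESC. Across the 10 E14Tg2a groups (6 whole libraries, and the listed PGCLC and other cells of 2 EB libraries) their log2(CPM + 1) values had r = 0.969, and Zic5 was the gene most like Zic2 of 12271 ranked. In EB, Zic2 had 2.05 CPM in d2 PGCLC (6 UMIs), 0.256 in other d2 EB cells (3 UMIs), 11.4 in d4 PGCLC (12 UMIs) and 0 in other d4 EB cells. Zic5 had 9.89 CPM in d2 PGCLC (29 UMIs), 1.19 in other d2 EB cells (14 UMIs), 16.1 in d4 PGCLC (17 UMIs) and 0.234 in other d4 EB cells (2 UMIs). Zic5 was thus higher in the listed PGCLC than in their neighbors at both days and Zic2 at d4, while Zic2 at d2 had fewer than 10 UMIs over both groups.

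Sox3 had an order of its own. It had 7 UMIs in 2i ESC (0.799 CPM), 9.09 CPM [7.40, 11.1] in d1, 17.0 [14.7, 19.6] in d2 and 17.2 [15.1, 19.5] in d3 EpiLC, 5.33 [4.14, 6.76] in EpiSC and 0.990 [0.475, 1.82] in S+L ESC. Its highest level was in d2 PGCLC at 23.2 CPM [18.0, 29.4], followed by 4.01 [2.95, 5.34] in other d2 EB cells, no UMI in d4 PGCLC and 16.6 [14, 19.6] in other d4 EB cells. Sox3 was the only one of the 7 genes whose highest E14Tg2a level lay outside EpiLC and EpiSC, and the only one above d2 EpiLC in d2 PGCLC.

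**Figure D1:**
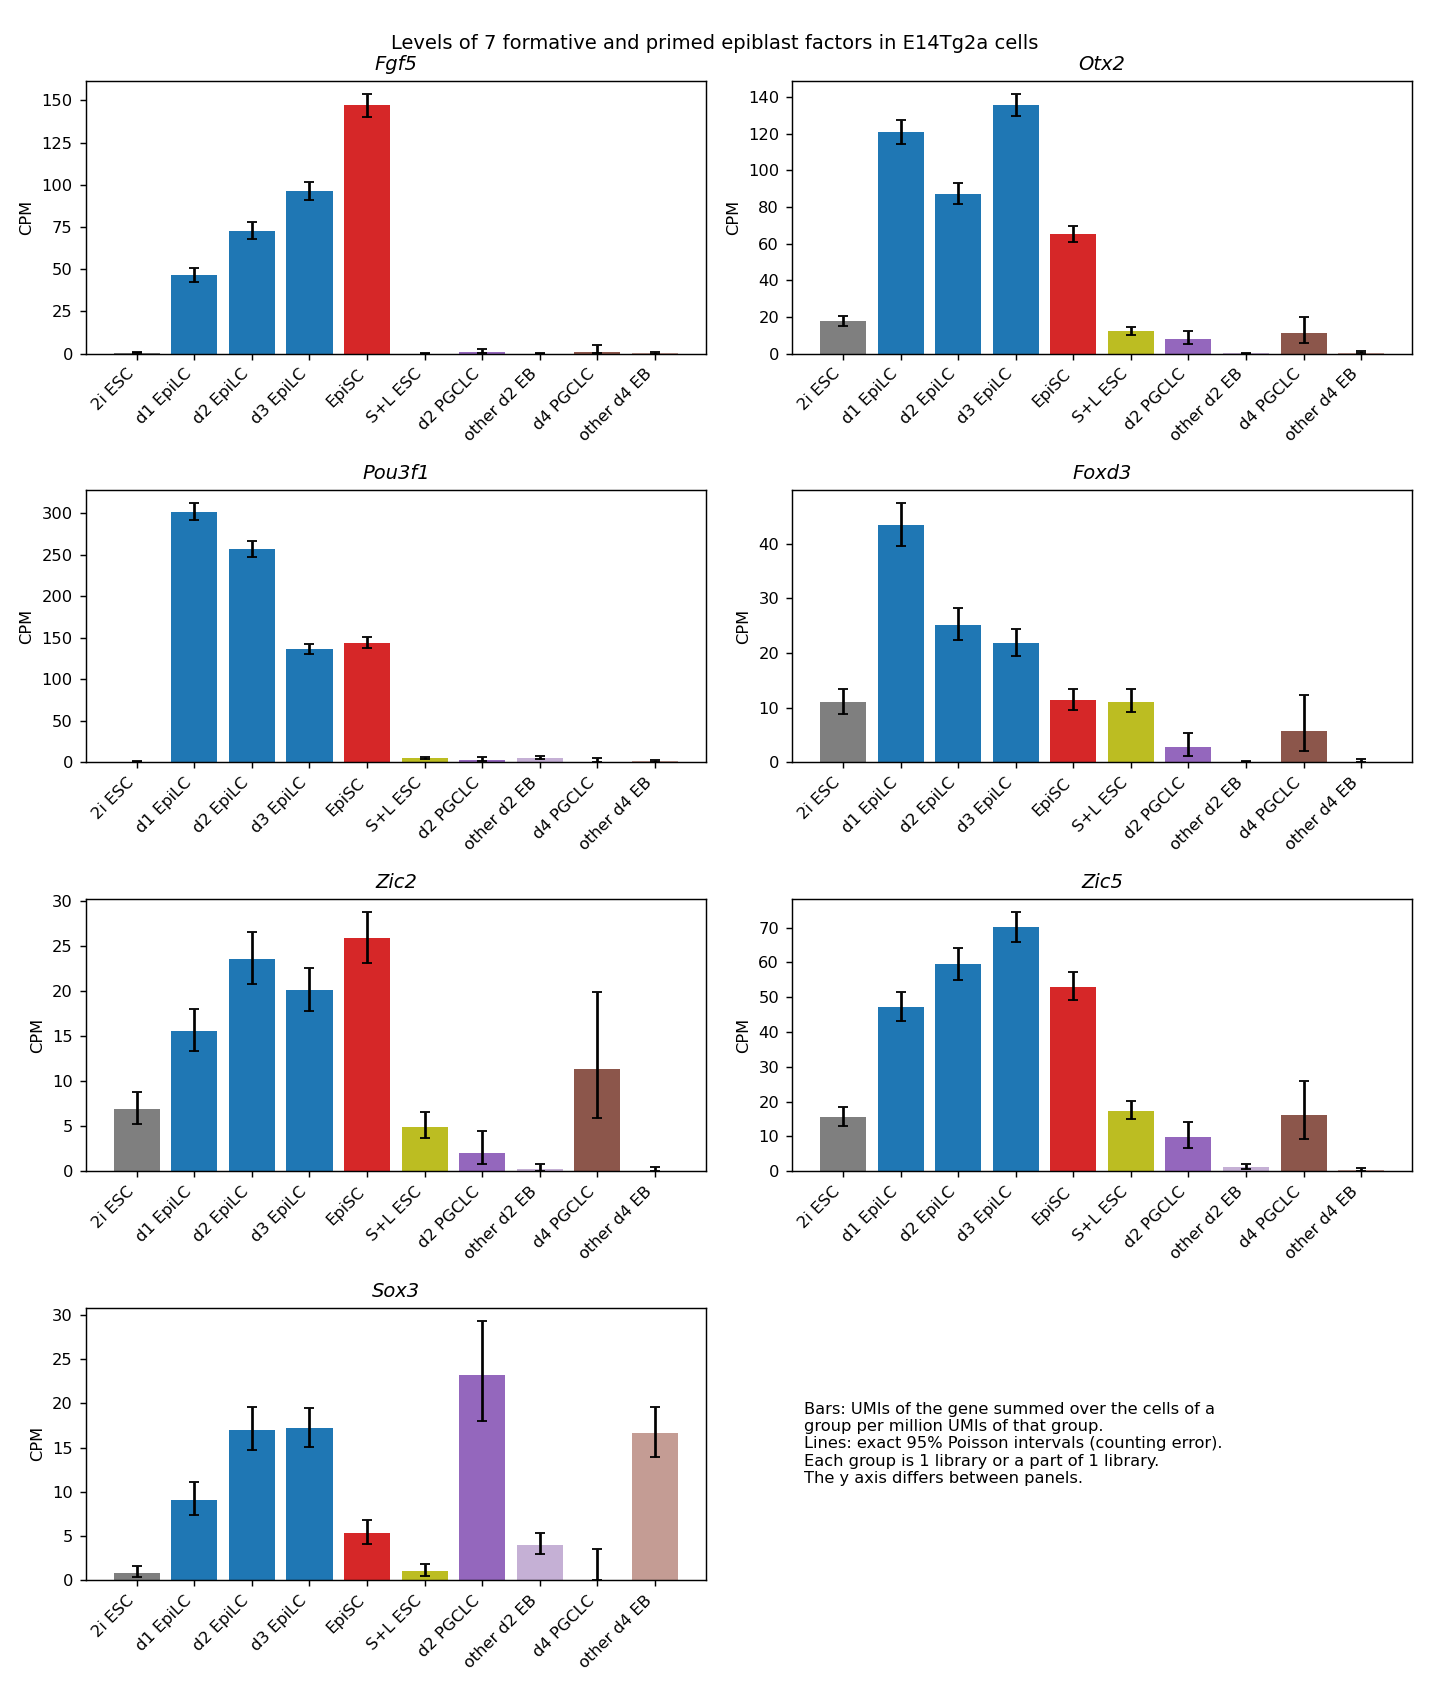
Level of each gene in CPM (y axis, scale differs between panels) in the 10 groups of E14Tg2a cells (x axis), with exact 95% Poisson intervals as lines. Fgf5 climbs to 147 CPM in EpiSC, Pou3f1 and Foxd3 are highest in d1 EpiLC (302 and 43.4 CPM), and Sox3 alone is highest in d2 PGCLC (23.2 CPM).

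Leaving 2i for 1 day of EpiLC medium separated all 7 genes: 7 of 7 were at least 2-fold higher in d1 EpiLC, beside 17.9% of the 12479 genes tested. The ratios were widest for Pou3f1 at 294 [154, 643] and Fgf5 at 203 [55.8, 1678], which started from 9 and 2 UMIs. Sox3 was 11.4-fold higher [5.32, 29.0], Otx2 6.86-fold [5.80, 8.16], Foxd3 3.96-fold [3.17, 4.98], Zic5 3.02-fold [2.50, 3.68] and Zic2 2.27-fold [1.68, 3.10]. The median log2 ratio was 2.49 for the 7 genes and 0.17 for all genes tested. Of 20 further formative genes 19 were tested, 16 were higher and 0 lower, among them Fgf15 (1 UMI to 461, an FGF ligand), the transcription factors Bcl11a (0 to 272 UMIs), Grhl2 (0.343 to 21.1 CPM) and Sall2 (0.571 to 26.5 CPM). Of 12 naive genes 9 were lower and 0 higher, with Klf4 going from 247 to 7.91 CPM, Tbx3 from 145 to 7.46 CPM and Tfcp2l1 from 125 to 7.91 CPM.

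From d1 to d2 EpiLC 0 of the 7 genes were 2-fold higher or lower, where 16.7% of all genes were higher and 10.3% lower. Sox3 (ratio 1.87 [1.46, 2.41]), Fgf5 (1.57 [1.40, 1.76]), Zic2 (1.52 [1.25, 1.85]) and Zic5 (1.26 [1.12, 1.42]) were higher beyond counting error, and Foxd3 (0.581 [0.499, 0.674]), Otx2 (0.723 [0.665, 0.786]) and Pou3f1 (0.851 [0.809, 0.895]) were lower. From d2 to d3 EpiLC 0 of 7 passed again, beside 8.29% of genes higher and 7.47% lower. Pou3f1 was lower at a ratio of 0.531 [0.501, 0.563], while Otx2 (1.55 [1.44, 1.68]), Fgf5 (1.32 [1.21, 1.45]) and Zic5 (1.18 [1.07, 1.30]) were higher and the intervals of Foxd3, Zic2 and Sox3 included 1. Otx2 thus dipped at d2 between higher values at d1 and d3, each from 1 library.

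In EpiSC the 7 genes did not move together. Relative to d3 EpiLC, Otx2 (ratio 0.480 [0.442, 0.521]) and Sox3 (0.310 [0.233, 0.407]) were at least 2-fold lower, which is 2 of 7 beside 11.2% of all genes, and 0 were at least 2-fold higher beside 13.5%. Foxd3 was lower at 0.523 [0.427, 0.639] and Zic5 at 0.757 [0.685, 0.836]. Fgf5 was higher at 1.53 [1.43, 1.64] and Zic2 at 1.29 [1.10, 1.51], and Pou3f1 was level at 1.05 [0.988, 1.12], or just under 1 with TMM or median-of-ratios scaling. Both scalings lowered the median log2 ratio of all genes by 0.13 and also took Foxd3 past 2-fold lower, which made 3 of 7. Of 13 primed and streak genes 9 were higher and 0 lower, including Fgf8 (13.1 to 222 CPM, a streak ligand), Foxa2 (1 to 588 UMIs, a forkhead factor of axial mesendoderm and endoderm), Cer1 (0 to 631 UMIs, a secreted Nodal and BMP antagonist) and Mixl1 (0 to 217 UMIs). Formative genes split, with 4 of 20 higher, such as Cdh2 (1.85 to 27.6 CPM) and Pim2 (112 to 476 CPM), and 3 lower, such as Crabp1 (22.1 to 2.27 CPM).

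Between the ESC media only Pou3f1 differed by 2-fold. Between 2i and S+L ESC, Pou3f1 was 5.20-fold higher in serum [2.55, 12.0], from 9 to 54 UMIs, and it was the only one of 6 genes tested to pass, beside 17.5% of all genes higher and 4.24% lower. Fgf5, with 2 UMIs in all, was not tested. Otx2 was lower in serum at a ratio of 0.687 [0.537, 0.876], and Foxd3 (1.01 [0.763, 1.34], just under 1 with TMM or median-of-ratios scaling), Zic2 (0.722 [0.486, 1.07]), Zic5 (1.11 [0.886, 1.40]) and Sox3 (1.24 [0.425, 3.83]) had intervals that included 1. Among other formative genes 11 of 19 were higher in serum and 0 lower, among them the ETS factor Etv4 (6.05 to 61.7 CPM), so the 7 genes and that list differed in count here. Their difference was not tested.

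Most EpiLC had UMIs of several of the 7 genes in the same cell. The share of these UMIs that came from free RNA was not measured, since the EpiLC libraries are of 1 labelled cell type each. In cells thinned to 15374 UMIs the median number of the 7 with a UMI was 1 in 2i ESC, 4 in d1, d2 and d3 EpiLC, 3 in EpiSC and 1 in S+L ESC. At least 5 were detected in 50 of 267 d1 EpiLC (18.7%), 75 of 283 d2 EpiLC (26.5%), 85 of 389 d3 EpiLC (21.9%) and 28 of 361 EpiSC (7.76%), and in none of 223 2i ESC. None of the 7 was detected in 0.749%, 0% and 0.257% of d1, d2 and d3 EpiLC, in 2.77% of EpiSC and in 41.7% of 2i ESC. In EB most cells had none: 90.0% of other d2 EB cells, 82.3% of other d4 EB cells, 51.6% of d2 PGCLC and 65.8% of d4 PGCLC. The libraries differed in median depth before thinning, and shallower cells were left out.

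**Figure D2:**
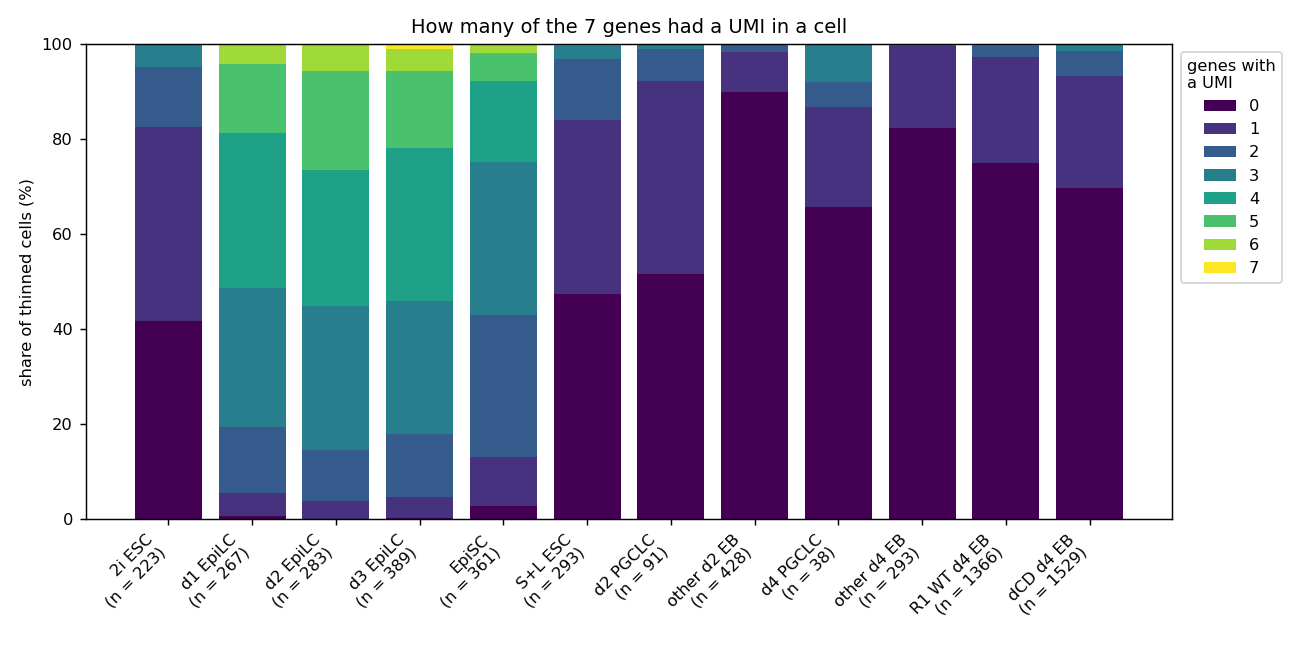
Share of thinned cells in percent (y axis) by how many of the 7 genes had at least 1 UMI (colors, 0 to 7), per group (x axis, number of thinned cells below each name; 15374 UMIs per E14Tg2a cell and 6831 per R1 cell). The median is 4 genes in each EpiLC library, 3 in EpiSC and 1 or 0 elsewhere.

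Inside EpiLC libraries correlations between the genes were weak. Across thinned cells, Pearson r over the 21 pairs ranged from -0.113 to 0.188 in d1, from -0.114 to 0.221 in d2 and from -0.0569 to 0.180 in d3 EpiLC. All cells of a library share its depth and capture, and correlations in sparse counts are pulled toward 0, so a small r does not show that genes vary independently. In EpiSC the range was wider, from -0.310 for Otx2 with Pou3f1 to 0.449 for Fgf5 with Otx2, over 361 cells. EpiSC also had the most uneven Fgf5 and Otx2: the variance over the mean of thinned UMIs was 2.96 for Fgf5 and 2.95 for Otx2, beside 1.24 to 1.68 and 1.20 to 1.5 in the 3 EpiLC libraries.

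**Figure D3:**
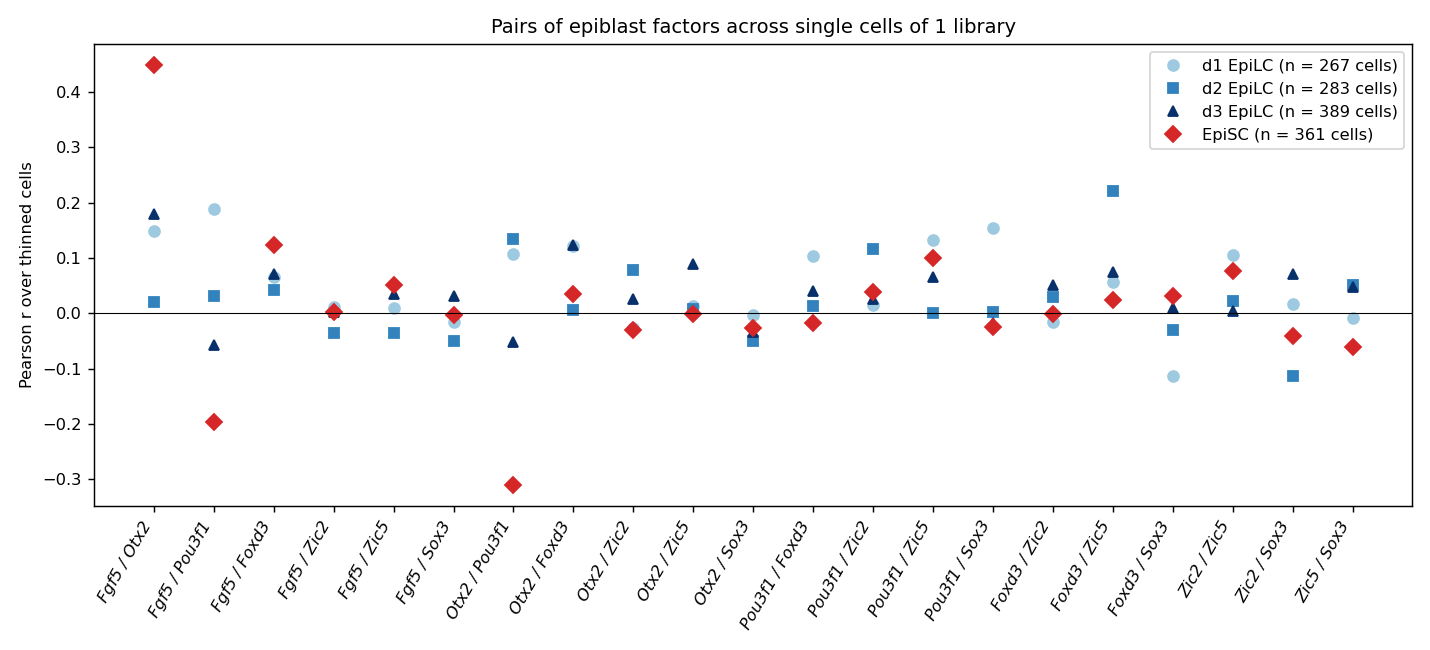
Pearson r over thinned cells (y axis) for the 21 pairs of the 7 genes (x axis) in d1, d2 and d3 EpiLC and EpiSC, with the number of cells in the legend. The EpiLC points lie between -0.114 and 0.221, and the EpiSC points for Fgf5 with Otx2 (0.449) and Otx2 with Pou3f1 (-0.310) stand outside that range.

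In d1 EpiLC, Fgf5 and Pou3f1 were higher in cells with fewer naive transcripts. Cells were split at the median share of UMIs from the 12 naive genes, 140 on each side. Fgf5 had 29.7 CPM [25.2, 34.7] in cells above the median and 61.5 [55.2, 68.2] in cells at or below it, a ratio of 2.07 [1.71, 2.52], and was the only one of the 7 past 2-fold, beside 3.48% of genes higher. Pou3f1 (1.36 [1.27, 1.46]) and Otx2 (1.17 [1.05, 1.31]) were higher in the same direction by less, and the intervals of Foxd3, Zic2, Zic5 and Sox3 included 1. Splitting and counting after thinning left Fgf5 at 1.44 [1.06, 1.97], beside Pou3f1 at 1.40 [1.24, 1.58] and Sox3 at 1.39 [0.711, 2.83], so that Fgf5 did not stand apart from these at equal depth. In d2 EpiLC the same split gave 0.874 [0.759, 1.01] for Fgf5 and 0.843 [0.783, 0.908] for Pou3f1. Pou3f1 thus went the opposite way to the first day, and the Fgf5 interval included 1. The d2 split was not repeated in thinned cells.

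EpiSC with and without an Otx2 UMI differed in Fgf5. This split was chosen after the data were seen. The 160 EpiSC with an Otx2 UMI (median 34446 UMIs) had 226 CPM [214, 238] of Fgf5 and the 213 without (median 28832 UMIs) had 73.2 [66.8, 80.0], a ratio of 3.08 [2.78, 3.43]. Fgf5 was detected in 159 of 160 cells with Otx2 (99.4%) and in 139 of 213 without (65.3%). After thinning, it was detected in 118 of 125 (94.4%) and 131 of 236 (55.5%), at a ratio of 2.95 [2.55, 3.41]. Foxd3 was also higher with Otx2, at 17.5 CPM beside 5.77, a ratio of 3.03 [2.08, 4.51] that was 2.28 [1.35, 3.86] in thinned cells. These were 2 of the 6 other genes, beside 5.05% of all genes past 2-fold upward and 3.21% downward. Pou3f1 went the other way, at 108 CPM with Otx2 and 177 without, a ratio of 0.611 [0.555, 0.672] that was 0.456 [0.378, 0.547] in thinned cells. Zic2 (1.16 [0.930, 1.45], thinned 0.964), Zic5 (1.16 [0.996, 1.36]) and Sox3 (1.27 [0.768, 2.12], thinned 0.989) had intervals that included 1. In EpiLC few cells lacked an Otx2 UMI, 19 in d1, 32 in d2 and 30 in d3, and Fgf5 in cells with one stood at ratios of 2.72 [1.37, 6.34], 1.51 [1.11, 2.11] and 1.5 [1.13, 2.04]. After thinning the ratios were 1.11 [0.770, 1.65] in d1, 0.869 [0.685, 1.11] in d2 and 1.61 [1.26, 2.08] in d3 EpiLC, so only d3 EpiLC had an interval above 1 at equal depth.

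EpiSC with Otx2 also had more of several streak and endoderm transcripts, with 8 of the 13 primed and streak genes past 2-fold upward and 0 downward. Gsc, an organizer homeobox gene, had 120 CPM with Otx2 and 6.38 without, Foxa2 87.8 and 6.99, the T-box factor Eomes 54.6 and 4.25, Mixl1 31.3 and 3.64, and Cer1 626 and 5 UMIs. The keratins Krt18 (204 and 27.5 CPM) and Krt8 (227 and 34.6 CPM) followed the same order. T, the pan-streak factor, differed far less at a ratio of 1.24 [1.10, 1.40], as did Fgf8 (1.22 [1.13, 1.31]), and Nodal (1.0 [0.805, 1.25]) and Lefty2 (0.978 [0.749, 1.28]) had intervals that included 1. Among genes with at least 100 UMIs, Cer1, Sox17 (2 to 370 UMIs, an endoderm factor), Dkk1 (a secreted Wnt inhibitor), Spink1, Pga5 and Gata6 were furthest above in cells with Otx2, and Fgfbp1, S100a6 and Gadd45g furthest below. Sox2 (0.722 [0.653, 0.799]), Utf1 (0.613 [0.573, 0.654]), Wnt8a (0.411 [0.273, 0.606]) and Klf2 (0.427 [0.356, 0.511]) were lower with Otx2. Their lists did not go 1 way: of 20 other formative genes 4 were past 2-fold upward and 1 downward. Of 9 naive genes tested 1 was past 2-fold upward and 2 downward. Whether these transcripts account for the Fgf5 difference was not tested.

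**Figure D4:**
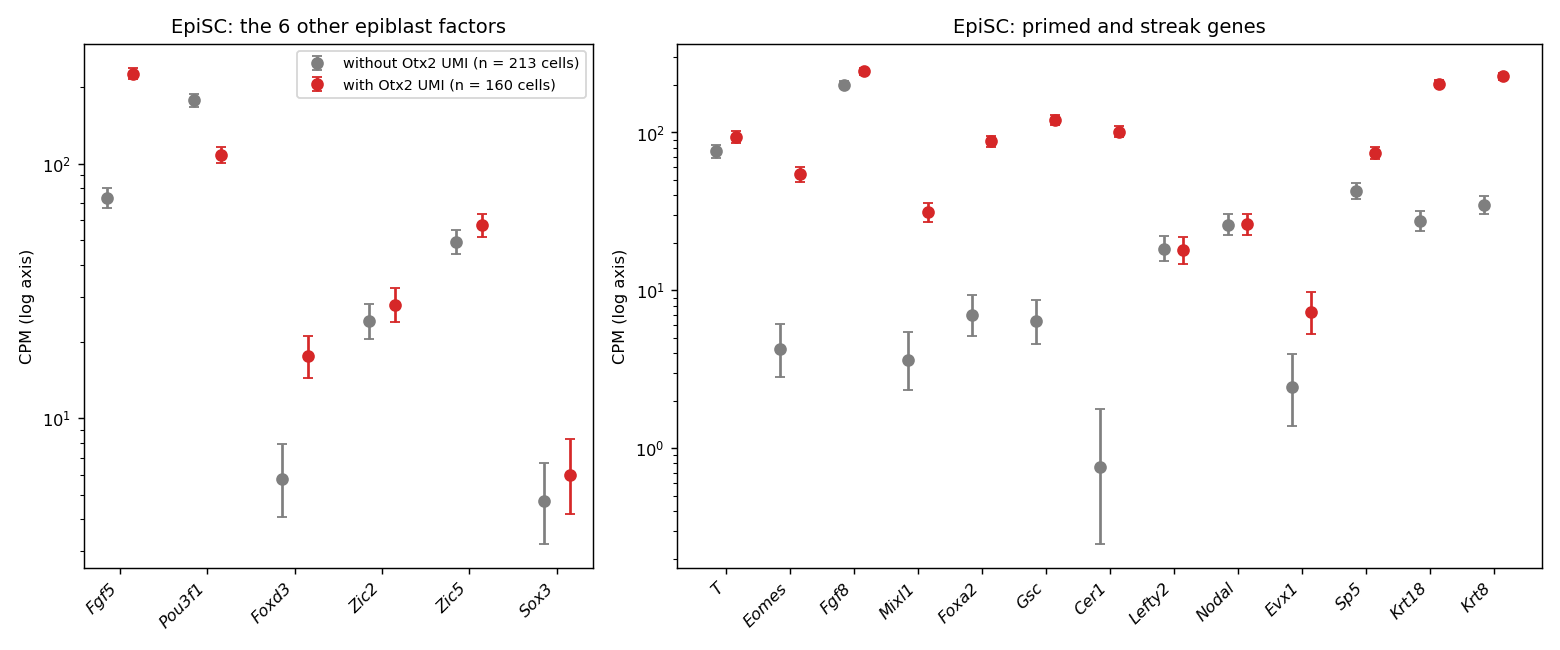
Levels in CPM (y axis, log scale) in EpiSC without an Otx2 UMI (gray, 213 cells) and with one (red, 160 cells), for the 6 other genes (left) and 13 primed and streak genes (right), with exact 95% Poisson intervals. Fgf5 and Foxd3 are higher and Pou3f1 lower in cells with Otx2, and Gsc, Cer1, Foxa2, Eomes and Mixl1 differ more than T, Fgf8, Nodal and Lefty2.

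Splitting EpiSC by T gave smaller differences in Fgf5, Foxd3 and Pou3f1 than splitting by Otx2, and a larger one in Sox3. The 151 cells with a T UMI had 92.8 CPM of Otx2 and the 222 without had 42.8, a ratio of 2.17 [1.88, 2.51] that was 1.46 [1.15, 1.84] after thinning. Sox3 was lower with T at 3.18 CPM beside 7.04, a ratio of 0.452 [0.248, 0.789], with a thinned interval that included 1 (0.615 [0.224, 1.46]). Otx2 and Sox3 were the only 2 of the 7 past 2-fold, beside 3.41% of genes higher and 2.18% lower, and neither was past it in thinned cells. Fgf5 stood at 1.40 [1.28, 1.54] and Pou3f1 at 0.814 [0.740, 0.895].

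On entering EB, all 7 genes were lower in the cells that were not listed as PGCLC. Relative to d2 EpiLC, 7 of 7 were at least 2-fold lower in other d2 EB cells, beside 16.5% of genes. Fgf5 and Foxd3 had no UMI there and were at least 284-fold and at least 98.4-fold lower, with 3 UMIs over the group as the limit. By the exact intervals the bounds were 230-fold and 79.5-fold. Otx2 was 1022-fold lower [183, 40403] from 973 UMIs to 1, Zic2 92.1-fold [31.2, 449], Zic5 49.8-fold [29.5, 91.6], Pou3f1 44.9-fold [35.3, 58.1] and Sox3 4.25-fold [3.07, 5.98]. Among other formative genes 10 of 20 were lower, with Pim2 going from 270 to 4.52 CPM and Utf1 from 646 to 16.1 CPM, and 3 higher, with Cdh2 going from 2.96 to 47.0 CPM.

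In d2 PGCLC 6 of 7 were lower by at least 2-fold relative to d2 EpiLC, beside 16% of all genes, and 0 at least 2-fold higher, beside 12.6%. Fgf5 was 106-fold lower [29.4, 881] and Pou3f1 75.3-fold lower [40.9, 157], while Zic2 (11.5-fold [5.22, 31.7]), Otx2 (10.7-fold [7.12, 16.7]), Foxd3 (9.24-fold [4.62, 21.6]) and Zic5 (6.02-fold [4.15, 9.06]) were lower by less. Sox3 was higher, at a ratio of 1.36 [1.02, 1.81]. Of other formative genes 13 of 20 were lower, including the de novo methyltransferase Dnmt3b (798 to 40.6 CPM) and Pim2 (270 to 15.3 CPM), and 10 of 12 naive genes were higher, including Tbx3 (1.17 to 65.8 CPM) and Klf2 (13.2 to 320 CPM). The listed PGCLC were picked by the study from clusters enriched in core germ cell genes, so the naive and germ cell genes are part of what chose them.

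Compared within the d2 EB library, listed PGCLC kept more of several of the 7 transcripts than their neighbors. Otx2 had 24 UMIs in 91 cells and 1 UMI in 446, a ratio of 95.9 [15.6, 3942], Zic5 was 8.27-fold higher [4.23, 16.9] and Sox3 5.78-fold [3.93, 8.57]. These were 3 of the 4 genes tested, beside 8.16% of genes higher and 15.5% lower. Pou3f1 was not separated (0.596 [0.273, 1.17]). Foxd3 (8 UMIs and 0) and Zic2 (6 and 3) had too few UMIs for the rule. Detection was sparse even in PGCLC, with Otx2 in 14 of 91 cells (15.4%), Zic5 in 13 (14.3%) and Sox3 in 37 (40.7%). After thinning the shares were 7.69%, 11% and 29.7%, beside 0.234%, 0.701% and 4.21% of other d2 EB cells. Median depth was 29664 UMIs in the PGCLC and 24046 in the other cells.

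Sox3 in d2 PGCLC was concentrated in cells with T, the mesoderm factor that is also an early germ cell gene. The 61 d2 PGCLC with a T UMI had 31.3 CPM of Sox3 and the 30 without had 4.49, a ratio of 6.98 [2.60, 26.4], with Sox3 detected in 34 of 61 cells and 3 of 30. The ratio was 9.84 [2.52, 84.7] after thinning. Otx2 went the opposite way, at 5.39 CPM with T and 14.6 without, a ratio of 0.369 [0.150, 0.892] on 24 UMIs, with a thinned interval that included 1 (0.341 [0.0732, 1.34]). Of the 4 genes with at least 10 UMIs, 1 (Sox3) was at least 2-fold higher with T, beside 10% of all genes, and 1 (Otx2) at least 2-fold lower, beside 6.87%. In other d2 EB cells Sox3 was also higher with T, at 7.65 CPM beside 2.27 (3.37 [1.81, 6.44]). This split was chosen after the data were seen.

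By day 4 Sox3 was not detected in the listed PGCLC, while Zic2 and Zic5 were. From d2 to d4 PGCLC, Sox3 went from 68 UMIs to 0, at least 8.15-fold lower with 3 UMIs as the limit, or 6.45-fold by the exact interval. With 3 cells as the limit, 0 of 44 cells allows a share of cells with a UMI of up to 6.82%, or 8.04% by the exact interval. Zic2 was 5.56-fold higher [1.93, 18.1] on 6 and 12 UMIs, and Foxd3 stood at 2.09 [0.597, 6.86] and Pou3f1 at 3.60-fold lower [0.512, 156], both with intervals that included 1. These are 2 of 6 genes tested in each direction, beside 7.36% of genes higher and 15% lower, and in thinned cells Sox3 alone passed. Otx2 (1.39 [0.634, 2.89]) and Zic5 (1.63 [0.840, 3.07]) were not separated. T itself went from 372 UMIs to 0 and Fgf8 from 760 to 1. In other EB cells Sox3 took the opposite course and was 4.14-fold higher at d4 than at d2 [2.96, 5.89], while Pou3f1 was 3.76-fold lower.

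Within d4 EB, listed PGCLC had more Otx2, Zic2 and Zic5 and less Sox3 than the other cells. Otx2 was 24.3-fold higher in PGCLC [7.37, 103] on 12 and 4 UMIs, Zic5 68.9-fold [16.4, 615] on 17 and 2 UMIs, and Zic2 at least 32.4-fold on 12 UMIs and 0. Sox3 was at least 5.84-fold lower, with 3 UMIs as the limit for each count of 0. By the exact intervals the bounds were 22.5-fold for Zic2 and 4.69-fold for Sox3. Of 5 tested genes 3 were thus higher beside 10.3% of all genes, and 1 lower beside 34.4%. Each called gene met the 10 UMIs through the group where it was high, so these counts are not independent of that minimum. Of the genes called in this comparison 23.0% were higher, and the share was 33.2% with TMM scaling and 34.8% with median-of-ratios scaling, which raised the median log2 ratio of all genes by 0.26 and 0.28. The same 4 genes were called, in the same directions, under both scalings. In thinned cells only Sox3 kept 10 UMIs and 2-fold. Sox2, a pluripotency and germ cell factor related to Sox3, was also higher in d4 PGCLC (4.21 to 392 CPM).

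Clustering of E14Tg2a EB cells without the 7 genes placed most of their transcripts in few clusters. Cluster 2, with 82 d2 EB and 49 d4 EB cells, held all 6 PGC markers at least 2-fold above the other cells, although Hba-a1, Nr0b1 and Hba-x led it and none of the 6 was among its 10 leading genes. It had 8.10 CPM of Otx2 at d2 and 11.7 at d4, and 10.8 and 15.1 CPM of Zic5. Pou3f1 was highest in cluster 3 (96 cells, led by Serpinb9e, Dmrtc1b and Vnn1) at 18.0 CPM at d2 and 5.94 at d4, where 4 of 7 detected extraembryonic ectoderm markers were at least 2-fold higher. Sox3 at d4 was in cluster 1 (243 d4 EB cells, led by Dnm3os, Tbx5 and Asb12) at 27.0 CPM [22.7, 31.9], which is 138 of the 142 Sox3 UMIs of the d4 EB library.

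In R1 d4 EB, Otx2, Zic2 and Zic5 were higher in dCD cells and Sox3 was lower. Otx2 had 119 UMIs in R1 WT (5.78 CPM [4.79, 6.92]) and 548 in dCD (23.9 [22.0, 26.0]), a ratio of 4.14 [3.39, 5.09]. Zic2 had 4.03 CPM [3.21, 5.0] and 13.2 [11.7, 14.8], a ratio of 3.27 [2.56, 4.22], and Zic5 5.49 [4.52, 6.60] and 13.4 [11.9, 15.0], a ratio of 2.44 [1.96, 3.05]. These were 3 of 7 beside 14.5% of all genes. Sox3 had 21.2 CPM [19.2, 23.3] and 9.22 [8.02, 10.6], 2.30-fold lower in dCD [1.94, 2.72]. Fgf5 also met the rule at 2.00-fold lower, but on 18 and 10 UMIs with an interval from 0.876 to 4.85, so that 2 of 7 were lower beside 7.78% of all genes. Pou3f1 was close to level at 16 CPM in R1 WT and 18.6 in dCD (1.17 [1.01, 1.35]), and Foxd3 at 2.96 and 2.97 CPM (1.0 [0.699, 1.44], just under 1 with TMM or median-of-ratios scaling). An Otx2 UMI was found in 5.16% of R1 WT and 17.3% of dCD cells, and in 2.93% and 11.4% after thinning to 6831 UMIs per cell.

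Cell composition differed between the 2 genotypes along with these genes. The naive list summed to 642 CPM in R1 WT and 1014 in dCD, with 7 of its 12 genes at least 2-fold higher in dCD and Fgf4, a ligand of the naive and formative epiblast, 4.46-fold higher. Extraembryonic mesoderm markers summed to 1465 and 439 CPM (8 of 8 detected in both), extraembryonic ectoderm markers to 155 and 342 CPM, and PGC markers to 108 and 104 CPM. The PGC sums do not count germ cells. In the clustering below, clusters 6 and 7 had 5 and 6 of 6 PGC markers at least 2-fold above the other cells. They held 97 and 69 R1 WT cells but 3 and 2 dCD cells. Cluster 1, rich in naive genes and mostly of dCD cells, also had 4 of 6. Levels of the 7 genes were also compared by cluster, with the 7 genes left out of the clustering.

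Cluster 1, led by Gm46332, Vwa3b and Gm13580, had 11 of 12 naive genes at least 2-fold above the other cells and held 115 R1 WT and 457 dCD cells. It carried 61.3% of the Otx2, 67.5% of the Zic2, 54.9% of the Zic5 and 91.8% of the Foxd3 UMIs of R1 WT. Inside it Otx2 was not separated between genotypes, at 38.6 CPM in R1 WT and 33.2 in dCD (0.860 [0.659, 1.13]). Zic2 (29.6 and 15.8 CPM, ratio 0.534 [0.385, 0.750]) and Zic5 (32.8 and 19.4 CPM, ratio 0.594 [0.437, 0.814]) were lower in dCD, opposite to the whole libraries. Foxd3 was 5.04-fold lower in dCD within the cluster, at 29.6 and 5.88 CPM (0.199 [0.130, 0.302]), although the whole libraries had equal Foxd3. The cluster held 115 of 1416 R1 WT cells and 457 of 1699 dCD cells. How far this accounts for the ratios of the whole libraries was not tested.

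Clusters 2, 3, 4, 6, 7 and 8 were nearly of 1 genotype. Cluster 2 (498 of 506 cells dCD, led by Hbb-y, Hba-x and Hbb-bh1) carried 26.3% of the dCD Otx2 UMIs at 23.1 CPM and 51.9% of the dCD Pou3f1 UMIs at 35.4 CPM. Cluster 3 (457 of 480 cells dCD, led by Cntnap5a and C1ql4) carried 18.4% of the dCD Otx2 UMIs at 20.4 CPM. Cluster 4 (369 R1 WT cells, led by Gal, Tbx4 and Wnt2) carried 64.0% of the R1 WT Sox3 UMIs at 57.6 CPM. Cluster 6 (97 of 100 cells R1 WT, led by Igfbpl1, Lefty1 and Fgf8) had 35.6 CPM of Sox3 in R1 WT. Cluster 7 (69 of 71 cells R1 WT, led by BC048679, the germ cell gene Dppa3 and Ap3b2) carried 29.4% of the R1 WT Otx2 UMIs at 31.8 CPM, and all 6 PGC markers were at least 2-fold above the other cells in it. Cluster 8 (43 dCD cells, led by the 2-cell stage genes Usp17lc and Tcstv3 and by Gm8953) had the highest Sox3 level of dCD cells, 69.0 CPM. For such clusters the library and the cell type cannot be told apart.

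In 2 clusters shared by both genotypes single genes differed strongly. The share of all genes past 2-fold inside clusters 0, 1 and 5 was not computed. In cluster 5 (151 R1 WT and 112 dCD cells, led by Vgll3, Ptx3 and Ccl2, with 5 of 7 detected extraembryonic ectoderm markers at least 2-fold higher) Otx2 had 4 UMIs in R1 WT and 54 in dCD, 1.24 and 22.5 CPM, a ratio of 18.1 [6.67, 68.8]. Pou3f1 was highest in this cluster and not separated between genotypes, at 62.4 and 54.1 CPM (0.867 [0.690, 1.09]). In cluster 5 Zic2 (7.37 [1.61, 68.4] on 2 and 11 UMIs) and Sox3 (2.87 [1.10, 8.33] on 7 and 15 UMIs) were also higher in dCD. Zic5 was not separated there (1.53 [0.485, 4.96]), and Foxd3 had 2 UMIs in R1 WT and 0 in dCD. Inside cluster 1 Sox3 was not separated, at 2.64 and 2.80 CPM (1.06 [0.386, 3.61]). In cluster 0 (536 R1 WT and 108 dCD cells, led by Lum, Col6a3 and Tdo2) Sox3 was 2.55-fold higher in dCD [1.72, 3.73], at 12.1 and 30.9 CPM, opposite to the whole libraries, and Pou3f1 was 2.35-fold lower, at 13.8 and 5.88 CPM.

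**Figure D5:**
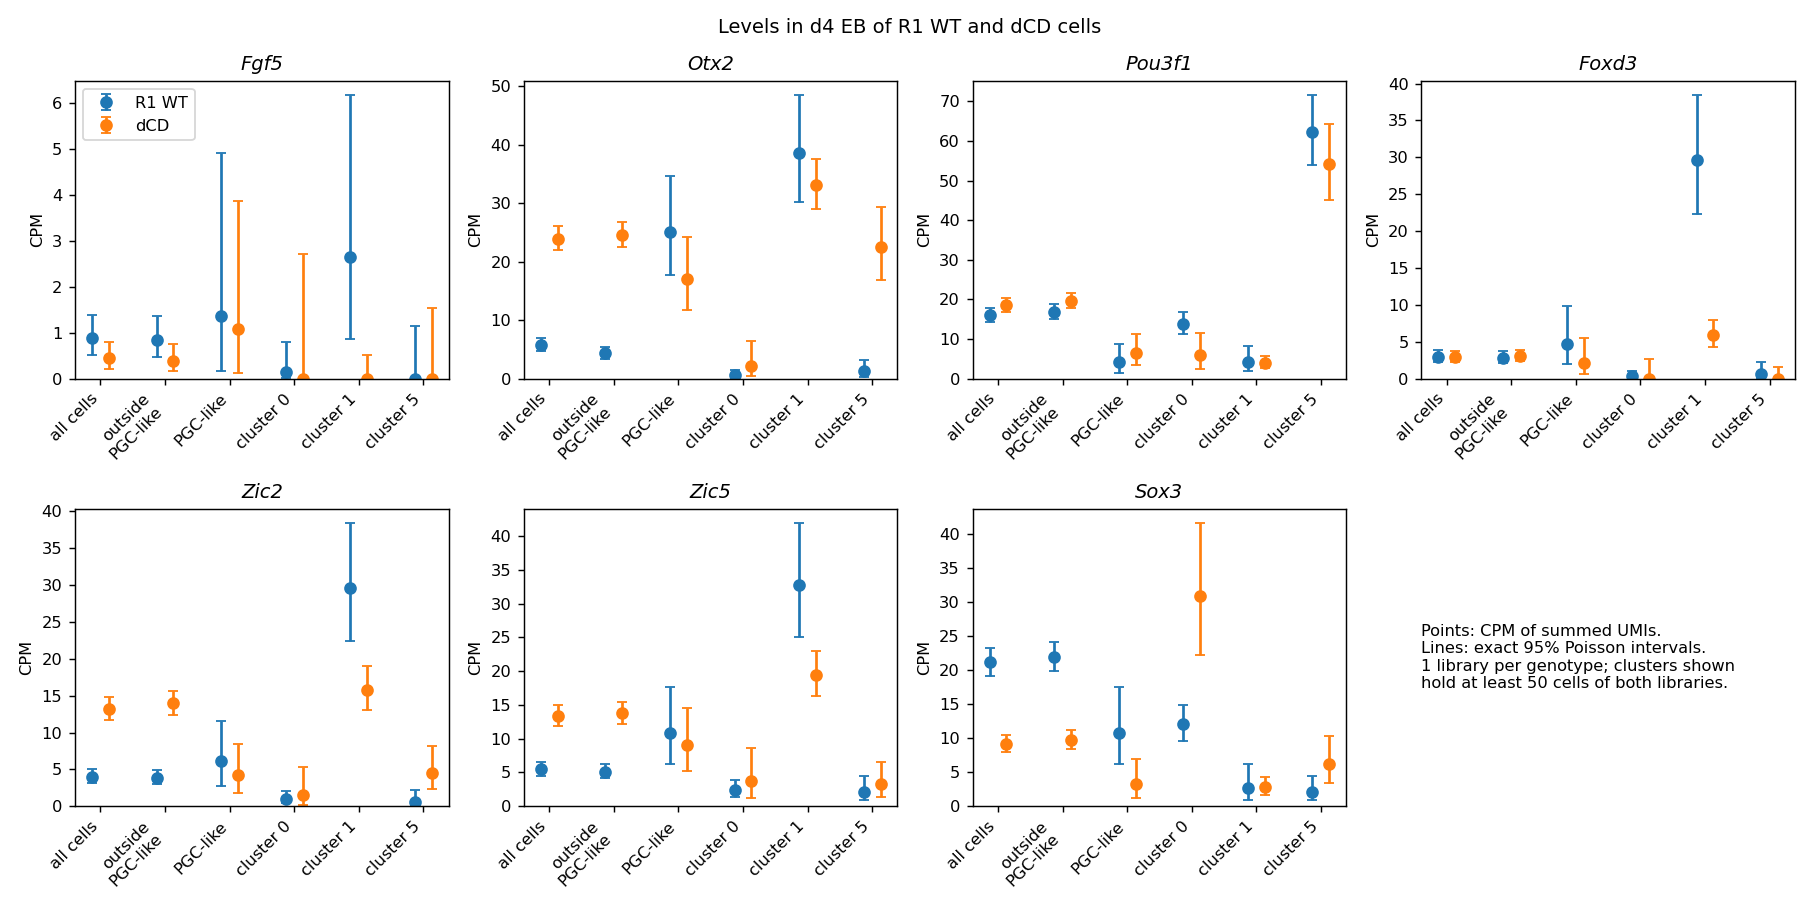
Level of each gene in CPM (y axis, scale differs between panels) in R1 WT (blue) and dCD (orange) d4 EB, for all cells, cells outside and inside the PGC-like selection, and the 3 clusters with at least 50 cells of both libraries (x axis), with exact 95% Poisson intervals. Otx2 is higher in dCD over all cells (5.78 and 23.9 CPM) and in cluster 5 but not in cluster 1, and Foxd3 is lower in dCD in cluster 1 (29.6 and 5.88 CPM).

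R1 cells were also grouped by a germ cell rule of the study's methods. Cells with Dppa3 above 0.1 or Prdm1 above 1, and with Klf4 below 1, were taken as PGC-like. The methods give these thresholds without naming the scale, which was taken here as log-normalized. This selection held 89 R1 WT and 118 dCD cells, and the higher Otx2 of dCD was not seen in it. Its cells lay in different clusters in the 2 genotypes: 46 of the R1 WT cells were in cluster 7, 26 in cluster 6 and 13 in cluster 1, while 66 of the dCD cells were in cluster 1, 34 in cluster 2, 3 in cluster 6 and 0 in cluster 7. Otx2 had 25.1 CPM [17.7, 34.6] in R1 WT and 17.1 [11.7, 24.1] in dCD, a ratio of 0.681 [0.411, 1.12], beside 4.29 and 24.6 CPM in the cells outside it, a ratio of 5.72 [4.53, 7.32]. Sox3 was 3.38-fold lower in selected dCD cells [1.26, 10.6] on 16 and 6 UMIs and Foxd3 2.22-fold lower [0.565, 10.3] on 7 and 4 UMIs, which is 2 of 6 tested genes beside 4.44% of all genes lower, and 0 were higher beside 14.9%. Zic2 (0.700 [0.235, 2.05]), Zic5 (0.837 [0.398, 1.77]) and Pou3f1 (1.58 [0.547, 5.12]) had intervals that included 1, and Zic2 and Zic5 were higher in dCD when the rule was applied to UMIs.

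Over the 10 E14Tg2a groups, genes with the most similar pattern were named by Pearson r of log2(CPM + 1) among 12271 genes with at least 100 UMIs. The 10 values share depth and cell state, so r is a description. Fgf5 was closest to Mmp25 (0.983), Gm38393 (0.970) and Nrcam (0.969), Otx2 to Myo10 (0.977), Zic5 (0.973) and Dtna (0.970), and Pou3f1 to St8sia3 (0.973), Cdh10 (0.972) and Dnmt3b (0.972). Foxd3 was closest to Slc7a3 (0.975), 2900011O08Rik (0.971) and Myo10 (0.966), Zic2 to Zic5 (0.969), Nefl (0.95) and Mtcl1 (0.949), and Zic5 to 2900011O08Rik (0.976), Otx2 (0.973) and Mtcl1 (0.971). Sox3 had only 3 genes at r of at least 0.9, Zfp266 (0.910), Rgp1 (0.908) and Dcp1a (0.904), where the other 6 genes had 25 to 60. Its r with the other 6 ranged from -0.0696 with Zic2 to 0.487 with Pou3f1, while Otx2, Foxd3, Zic2 and Zic5 had r of 0.907 to 0.973 with each other.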

How the data were processed

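Single-cell RNA-seq libraries were made with 10x Genomics chemistry (v2 for E14Tg2a, v3 for R1), 1 library per condition. The authors deposited UMI counts per gene and cell for both tables. Per the labels and the study's methods, E14Tg2a libraries were processed with Cell Ranger 2.1.0 on mm10 and aggregated to equal mapped reads, so deposited depths are partly equalized, and R1 cells were kept from 2000 expressed genes. The tool version for the R1 table is not given in the sources used here. Equalizing depth removes UMIs and lowers detection of rare transcripts. E14Tg2a cells were assigned to stages by the ending of their barcodes, and PGCLC by a list of 135 barcodes, all found, both from the paper's supplement. There were 8 barcode sequences in more than 1 E14Tg2a library, and leaving these cells out was an alternative.

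Counts were summed per group and scaled to CPM (a total of 1000000 per group) with Python 3.11.15, numpy 2.4.6, scipy 1.17.1 and pandas 2.3.3. Intervals were exact at 95%. Limits for a count of 0 (at least, up to) instead took 3 UMIs or 3 cells as the most that a 0 allows. They are tighter than the bounds of the exact intervals. No test was run, since each group is 1 library and cells are not replicates, and nothing states how many cultures went into a library. Genes with at least 10 UMIs over both groups and a ratio of at least 2 were called. The scripts were tested on simulated Poisson counts, the model that the intervals assume. That test does not check for spread between cells or libraries. Shares of cells were also taken after thinning each cell without replacement to 15374 UMIs (E14Tg2a) or 6831 UMIs (R1), with shallower cells left out. EB cells were clustered with Seurat 5.3.0 in R 4.3.3 (2000 variable genes without the 7 genes, 10 components, resolution 0.3). Doublets were kept and called with Scrublet in scanpy 1.11.5 for an alternative, which marked 0.589% to 6.23% of cells per library. Scaling alternatives used TMM in edgeR 4.0.16 and size factors in DESeq2 1.42.0. Totals of 8757170 to 22887974 UMIs per library set the counting intervals.

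The 7 genes and the gene lists were chosen with earlier results of these data known. Named further genes were the 3 most alike per gene, list genes at least 4-fold apart (at most 4 per list and comparison) and the 3 leading genes of clusters in which a gene was highest. Some genes that these rules name are not reported here. Cells split by Otx2, and d2 PGCLC split by T, were chosen after the data were seen, as were the genes named as lower or level in EpiSC with Otx2 and all list genes under 4-fold. Symbols were given for 27645 of 27998 E14Tg2a gene identifiers by the annotation used here.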

Additional observations from a re-analysis of the deposited data

Results flagged for a closer look

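Sox3 took opposite courses between d2 and d4 in the 2 kinds of EB cells. In listed PGCLC it went from 23.2 CPM in 91 cells to 0 in 44 cells, and in other EB cells from 4.01 CPM in 446 cells to 16.6 CPM in 324 cells. Each course rests on 1 library per day, and the difference between them was not tested.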

How the results depend on the processing

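Counts of the 7 genes called stayed within 1.5 times the reported value in 125 of 145 alternatives. For single genes, 1012 ratios were taken under alternatives, and not all of them could change direction. A changed UMI minimum or fold rule leaves a ratio as it was, and a pseudocount cannot turn its direction. Of the 1012 ratios 23 changed direction, 0 of them for a gene called in that comparison or split. Examples are Foxd3 by T in EpiSC (0.877, thinned 1.15), Zic2 and Sox3 by Otx2 in EpiSC (1.16 and 1.27, thinned 0.964 and 0.989), Fgf5 by Otx2 in d2 EpiLC (1.51, thinned 0.869), and Zic2 in PGC-like cells (log2 ratio -0.43, and 1.39 with thresholds on UMIs). With a 1.5-fold rule 4 genes were called from d1 to d2 EpiLC, 2 from d2 to d3 EpiLC and 4 from d3 EpiLC to EpiSC, and with a 3-fold rule 1 from d3 EpiLC to EpiSC (Sox3), 2 between R1 WT and dCD (Otx2 and Zic2) and 1 in PGC-like cells (Sox3). In thinned cells 2 genes were called between the ESC media (Pou3f1 and Zic2), 1 from d2 to d4 PGCLC, 1 between d4 PGCLC and other d4 EB cells, 0 in PGC-like cells, 0 by naive share in d1 EpiLC and 0 by T in EpiSC, the last 2 settings being added after the data were seen. A minimum of 1 UMI gave 2 genes between the ESC media and 6 between d2 PGCLC and other d2 EB cells, and a minimum of 50 UMIs gave 1 in that EB comparison, 1 from d2 to d4 PGCLC, 1 between d4 PGCLC and other d4 EB cells and 0 in PGC-like cells. PGCLC taken as the cluster with the highest PGC markers gave 2 from d2 to d4 (Zic2 and Sox3), and a pseudocount of 1 CPM gave 1 in PGC-like cells (Sox3). Thinning leaves fewer UMIs, but Fgf5 by naive share (67 and 120 UMIs, ratio 1.44) and Otx2 by T (187 and 124 UMIs, ratio 1.46) kept more than the minimum and fell below 2-fold. The causes were not tested. No paired analysis was possible because the labels carry no replicate numbers and each group is 1 library. Depth limits the listed PGCLC, where 44 cells at d4 gave 1 to 17 UMIs for each gene detected, and the PGC-like cells, where Sox3 rests on 16 and 6 UMIs.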
